A study of Mus musculus with 24 samples.

Results

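The comparison described is that of C2C12 cells given linoleic acid with cells given vehicle, both collected on day 2 of differentiation. It compares 8 of the 24 libraries of the series, 4 in each group, and the members were chosen by the treatment and day in their labels. For the tests of single genes, the spread was estimated over all 24 libraries in 6 groups, those of ANGPTL4 at day 6 included. C2C12 is an established wild-type line of mouse myoblasts, which leave the cell cycle and fuse to myotubes once serum is reduced. The cells were kept in 10% fetal bovine serum and then moved to 2% horse serum. Linoleic acid, the 18-carbon omega-6 fatty acid with 2 double bonds (18:2n6), was added during differentiation at 100 µM, bound to bovine serum albumin. The control group is labelled as vehicle, and the labels used here do not say what the vehicle held. For reference, 4 further day 2 libraries came from cells given recombinant mouse ANGPTL4 at 10 ng/mL, and day 6 libraries of vehicle and of linoleic acid (4 each) were used to ask where the effect differs between days. All groups come from this single line, and the labels do not say whether the libraries of a group came from separate cultures. The p-values therefore measure the spread between libraries, which may be technical.

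Long-chain fatty acids enter muscle cells through carriers such as CD36 and the FATP proteins, are activated to acyl-CoA, and are then burned in mitochondria, stored in lipid droplets or bound by nuclear receptors of the PPAR family. Ligand-bound PPAR pairs with RXR on DNA and raises transcription of genes for fatty acid import, oxidation and storage. ANGPTL4, a secreted inhibitor of lipoprotein lipase, is among the best known of these target genes in muscle. CPT1A, an entry enzyme of mitochondrial fatty acid oxidation, is another. The title of the study names ANGPTL4 and the Wnt/β-catenin pathway, a regulator of myoblast commitment and fusion.

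Values are gene-level read counts from QuantSeq 3′ sequencing, given as CPM, a gene's counts relative to the scaled total of its library. The vehicle libraries held 9.85 to 14.5 M counts each (mean 12.0 ± 1.98, SD, n = 4), and those of linoleic acid 9.55 to 25.05 M (19.2 ± 7.31). The difference of 7.18 M was within the spread of these libraries (2-sided exact permutation p = 0.143, smallest possible 0.0286). Without linoleic acid replicate 4 it was 10.4 M (exact permutation p = 0.0286). The 11 markers of myoblasts and myotubes were all measured, and they summed to 13212 to 14579 CPM with vehicle and 12606 to 13501 with linoleic acid. Of 10 adipocyte markers, only Lipe and Pparg were among the deposited genes. Both passed the filter on low counts and summed to 9.37 to 10.6 CPM with vehicle and 10.9 to 11.9 with linoleic acid. Adipoq, Plin1 and Fabp4 were absent from the deposited counts. Markers of macrophages (3 of 8 tested) and endothelium (1 of 8) summed to at most 7.63 and 1.15 CPM in these 8 libraries. Fibroblast and smooth muscle markers were abundant in both groups, from 6129 to 6919.9 and from 4331 to 5079 CPM. The smooth muscle list shares Des with the list of myoblasts and myotubes, and these sums do not show that other cell types were present. In bulk libraries such as these, fewer cells of a type and less RNA per cell cannot be told apart.

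The libraries of the linoleic acid group were not alike. On the first principal component of the 8 libraries, which held 36.4% of the variance, vehicle libraries lay between -14.9 and -5.88, and linoleic acid libraries 1 to 4 lay at 8.88, 11.002, 24.5 and -0.54. Linoleic acid replicate 3 thus lay far out, and replicate 4, the shallowest of the 8 libraries, lay nearest to vehicle. On the second component (18.3%), vehicle replicate 4 lay at 17.9 and linoleic acid replicate 4 at -14.1, beyond the other 6 at -9.28 to 3.87. Results that lean on these libraries are given with and without them.

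Linoleic acid changed 1961 of 12994 genes tested, 1075 of them higher and 886 lower, by edgeR's quasi-likelihood test at a Benjamini-Hochberg adjusted p under 0.05 (called genes below). These are 15.1% of the genes tested, 8.27% called higher and 6.82% called lower. Changes were mostly small, with a median size of 0.27 on the log2 scale among called genes, and 29 genes rose and 15 fell at least 2-fold. The 4 libraries of one group lay wholly above or below those of the other for 1834 genes, 14.1% of those tested, and for 1179 of the called genes. The count fell to 632 (364 higher and 268 lower) without linoleic acid replicate 3 and to 1109 (716 and 393) without vehicle replicate 4. It was 2456 without linoleic acid replicate 4, and 422 (254 and 168) when only the 8 compared libraries entered the fit. Of the called genes, 178 were called in the same direction under all 18 alternatives tried, 134 higher and 44 lower. The share of calls that were higher was 54.8%. It was 68.2% when libraries were scaled by their totals alone and 78.5% when the trend of each library over the length and GC content of transcripts was removed, with 722 genes called.

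**Figure D1:**
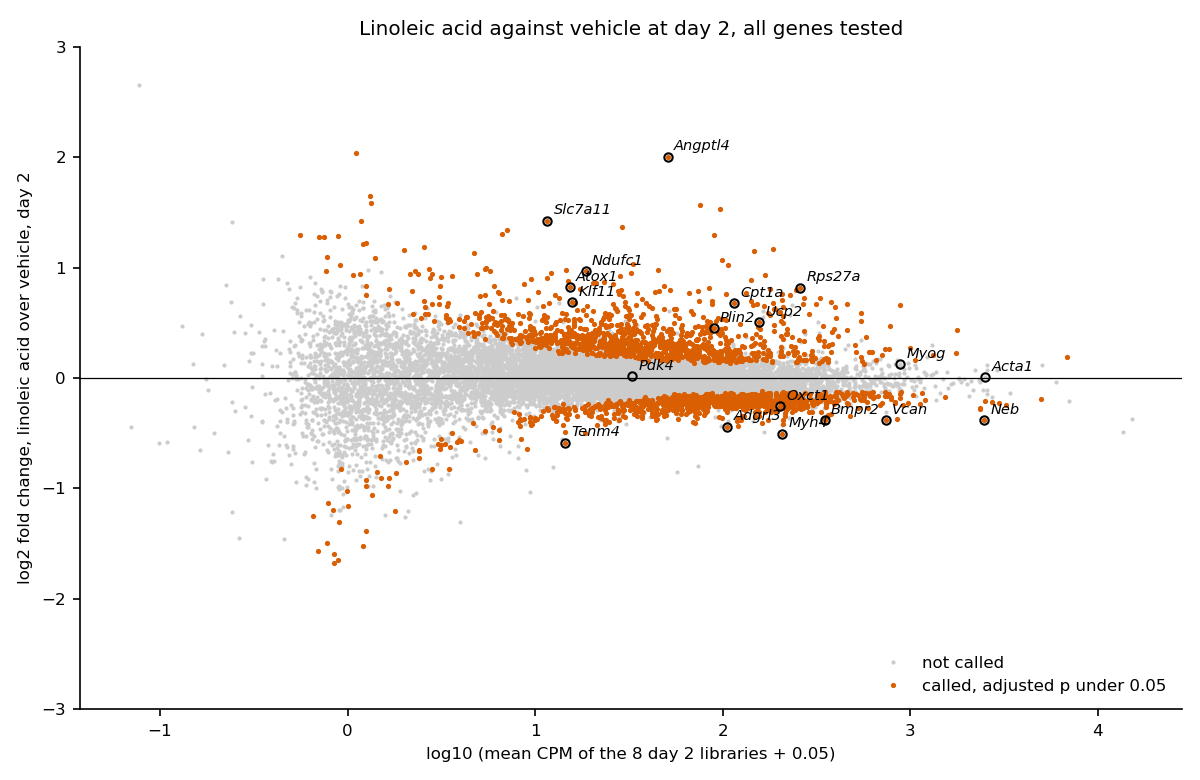
The log2 fold change of linoleic acid over vehicle at day 2 is plotted against the log10 of the mean CPM of the 8 libraries, 1 point a gene tested, with called genes in orange. Angptl4 stands at 2.01, and most other called genes lie close to the line at 0.

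Fatty acid genes such as Angptl4, Cpt1a and Plin2 were among those with the smallest adjusted p-values of the comparison. Angptl4 stood at 18.6, 21.8, 18.8 and 21.8 CPM in the vehicle libraries and at 82.4, 82.7, 81.8 and 79.8 CPM in the linoleic acid libraries. All 4 treated libraries lay close together and far above every vehicle library, including replicate 4. Angptl4 rose 4.02-fold (log2FC 2.01, SE 0.065, adjusted p = 2.15e-21), the smallest adjusted p of the comparison, and its adjusted p did not exceed 2.33e-11 in any of the 18 alternatives. Of 14 called genes that rose at least 2-fold and reached 5 CPM, Angptl4 was the only 1 whose groups did not overlap. In the other 13, linoleic acid replicate 4 lay at or below the highest vehicle library.

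Cpt1a stood at 90.5, 86.9, 81.2 and 93.6 CPM with vehicle and at 142, 141, 141 and 141 CPM with linoleic acid. The treated libraries differed by less than 2 CPM and lay above every vehicle library (log2FC 0.68, SE 0.048, adjusted p = 1.35e-11). Plin2, which coats lipid droplets, was at 81.4, 75.2, 72.2 and 74.3 CPM with vehicle and 101, 104, 108 and 100.4 CPM with linoleic acid, again without overlap (log2FC 0.45, SE 0.051, adjusted p = 1.57e-06). Klf11, a zinc finger transcription factor, was at 11.5, 13.2, 13.0 and 9.98 CPM with vehicle and 19.1, 21.4, 16.8 and 20.5 CPM with linoleic acid. Its lowest treated library was above its highest vehicle library (log2FC 0.69, SE 0.11, adjusted p = 0.000352). Ucp2, an uncoupling protein of the inner mitochondrial membrane, rose from 113, 131, 128 and 143 CPM to 184, 181, 178 and 189 CPM (log2FC 0.51, SE 0.082, adjusted p = 0.000646). In these 5 genes replicate 4 stood with the other treated libraries, and the calls held in all 18 alternatives.

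**Figure D2:**
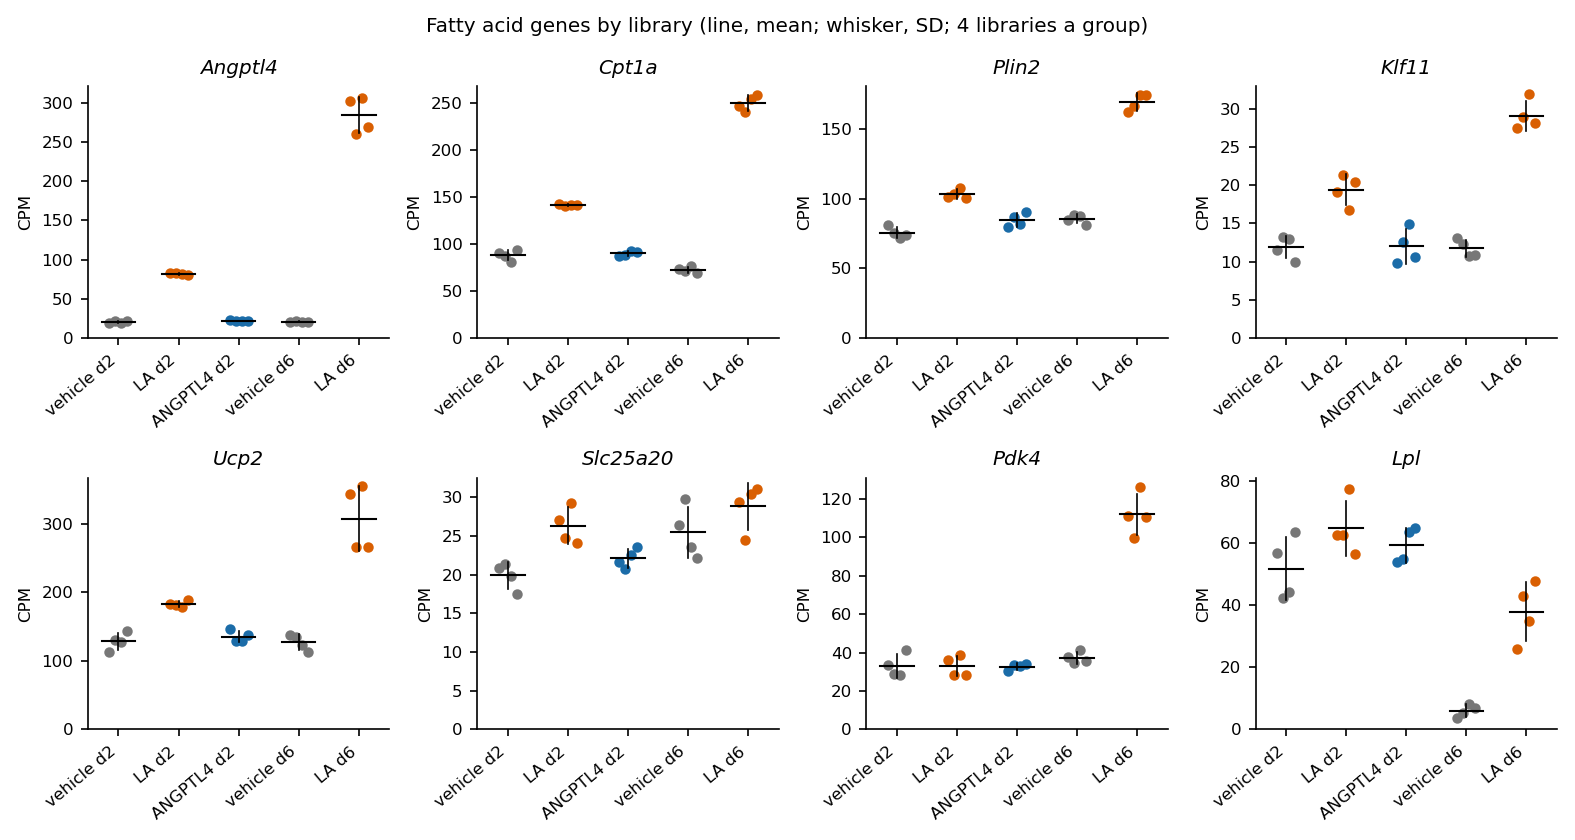
CPM of 8 genes is plotted, fatty acid genes and the transcription factor gene Klf11. Points are libraries of vehicle, linoleic acid (LA) and ANGPTL4 protein at day 2, and of vehicle and LA at day 6. Lines give the group mean and whiskers the SD. At day 2 Angptl4, Cpt1a, Plin2, Klf11 and Ucp2 are higher with LA than with vehicle in every library, while Pdk4 and Lpl overlap.

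PPAR and RXR bind pairs of the half-site AGGTCA, which reads TGACCT on the other strand. Of the 5 genes above, 4 matched a RefSeq promoter entry and Angptl4 did not. The 250 bases before the start of Cpt1a and Plin2 are shown because these genes had the smallest adjusted p after Angptl4 among the fatty acid genes and their windows hold this half-site, marked in capitals. Both are written 5′ to 3′ on the strand of the gene, from RefSeq on build GRCm38.p6, at chr19:3323051-3323300 (plus strand) for Cpt1a and chr4:86670060-86670309 (minus strand) for Plin2.
Cpt1a: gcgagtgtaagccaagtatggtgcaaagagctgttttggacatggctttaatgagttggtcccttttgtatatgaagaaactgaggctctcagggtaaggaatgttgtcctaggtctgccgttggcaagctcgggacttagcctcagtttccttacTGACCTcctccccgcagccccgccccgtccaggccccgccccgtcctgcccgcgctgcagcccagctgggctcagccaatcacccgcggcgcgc
Plin2: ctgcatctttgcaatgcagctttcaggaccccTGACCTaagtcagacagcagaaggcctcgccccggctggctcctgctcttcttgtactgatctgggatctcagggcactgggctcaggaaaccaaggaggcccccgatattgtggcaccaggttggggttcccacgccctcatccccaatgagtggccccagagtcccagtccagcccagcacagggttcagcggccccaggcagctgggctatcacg
The match begins 94 bases before the start of Cpt1a and 218 bases before that of Plin2. Each of these windows holds 1 exact half-site, so neither holds an exact pair. The windows of Klf11 and Ucp2 hold no such letters on either strand. The half-site occurs in 14.0% of 32851 promoter windows of the same length, and 11 of them hold the direct repeat AGGTCANAGGTCA on either strand. A match describes letters in a window and says nothing of binding in these cells.

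Among the genes of mitochondrial fatty acid oxidation, 12 of 31 tested members rose and 1 fell, with a median log2FC of 0.18 against 0.0054 over all genes tested, 8.27% of which were called higher. Besides Cpt1a and Ucp2, the carnitine carrier gene Slc25a20 stood at 20.9, 21.3, 19.8 and 17.5 CPM with vehicle and 27.1, 24.8, 29.3 and 24.03 CPM with linoleic acid (log2FC 0.41, SE 0.091, adjusted p = 0.00394). Acaa2, the thiolase of the last step of the β-oxidation spiral, stood at 60.3, 69.7, 63.6 and 63.2 CPM and 79.7, 77.5, 86.3 and 84.3 CPM (log2FC 0.35, SE 0.071, adjusted p = 0.00262). The groups did not overlap in either gene, and both calls held in all 18 alternatives. Ucp3, an uncoupling protein of muscle, was low, at 0.354, 0.340, 0.101 and 0.247 CPM with vehicle and 0.708, 0.682, 0.392 and 1.23 CPM with linoleic acid. It was called (log2FC 1.30, adjusted p = 0.0392), but in only 6 of 15 alternatives that tested it. The single member that fell was Oxct1, the enzyme that activates ketone bodies for burning, at 218, 224, 213 and 222 CPM with vehicle and 185, 174, 194 and 184 CPM with linoleic acid (log2FC -0.25, SE 0.056, adjusted p = 0.00408). Hadha, a subunit of the trifunctional enzyme, did not pass the test (log2FC 0.038, adjusted p = 0.643). Cpt1b, also in this list, was among the deposited genes but was removed by the filter on low counts. Without linoleic acid replicate 3 the list held 6 called higher and 1 lower, and the number higher was 6 with only the 8 compared libraries and 5 with the length and GC trend removed.

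In the list of fatty acid uptake and activation 4 of 20 tested members rose and 2 fell (median log2FC 0.12). Of all genes tested, 8.27% were called higher and 6.82% lower. Without linoleic acid replicate 3 the list held 2 called higher and 1 lower. It held 1 and 1 with only the 8 compared libraries, and 1 and 1 with the length and GC trend removed. Slc27a1, which encodes the carrier FATP1, rose from 79.5, 76.4, 73.5 and 74.7 CPM to 92.3, 90.2, 90.7 and 94.8 CPM (log2FC 0.27, SE 0.052, adjusted p = 0.00158) and was called in all 18 alternatives. Fabp3, the muscle fatty acid binding protein, rose (log2FC 0.54, adjusted p = 0.00532, called in 16 of 18 alternatives), as did Dbi, the acyl-CoA binding protein (log2FC 0.44, adjusted p = 0.0344, 9 of 18). For both, the replicate 4 value (7.87 and 67.3 CPM) lay within the vehicle range. Acsl3, which joins fatty acids to coenzyme A, fell from 432, 423, 418 and 450.1 CPM to 349.6, 379, 357 and 398 CPM (log2FC -0.22, SE 0.054, adjusted p = 0.00760). The fatty acid carrier Cd36 stood at 68.9 ± 8.75 CPM with vehicle and 66.3 ± 7.71 CPM with linoleic acid (SD, n = 4) and was not called (log2FC -0.056, adjusted p = 0.784).

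In peroxisomal oxidation 4 of 26 tested members rose and 0 fell (median 0.13), where 8.27% and 6.82% of all genes tested did. Pex19, needed to build the peroxisome membrane, rose from 142, 147, 147 and 128 CPM to 165, 163, 171 and 166 CPM (log2FC 0.24, SE 0.053, adjusted p = 0.00413). Ech1, an isomerase for unsaturated chains, rose (log2FC 0.28, adjusted p = 0.00678, 16 of 18 alternatives). Among lipid droplet and triglyceride genes 3 of 23 tested members rose and 0 fell (median 0.033). These were Plin2, the acyltransferase gene Agpat3, at 131, 136, 134 and 128 and 147, 157, 159 and 155 CPM (log2FC 0.22, SE 0.042, adjusted p = 0.00138), and the droplet coat gene Plin4 (log2FC 0.49, adjusted p = 0.0458), called in 7 of 18 alternatives.

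Several genes that are known to respond to fatty acids did not pass the test at this time. Pdk4, the kinase that shuts pyruvate dehydrogenase, stood at 33.4, 28.7, 28.6 and 41.5 CPM with vehicle and 36.2, 28.5, 38.8 and 28.4 CPM with linoleic acid. The ranges overlapped almost entirely (log2FC 0.017, SE 0.11, adjusted p = 0.941). Lpl, the lipase that ANGPTL4 inhibits, stood at 56.9, 42.3, 44.2 and 63.4 CPM and 62.4, 62.7, 77.4 and 56.3 CPM (log2FC 0.33, SE 0.17, adjusted p = 0.189). Among genes of fatty acid synthesis and desaturation 2 of 24 tested members rose and 0 fell, and the desaturase Scd1 stood at 681 ± 36.6 and 679 ± 20.8 CPM (log2FC -0.0047, adjusted p = 0.965). In the sterol list 1 of 33 tested members rose and 2 fell (median -0.00063). Both lists are read against 8.27% called higher and 6.82% called lower over all genes tested.

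Of the PPAR receptors and their partners, 2 of 21 rose and 4 fell (median -0.14), where 8.27% and 6.82% of all genes tested did. Without linoleic acid replicate 3 the counts were 0 and 1, and with the length and GC trend removed 0 and 0. The corepressor genes Nrip1 (log2FC -0.27, adjusted p = 0.00512) and Ncor1 (log2FC -0.20, adjusted p = 0.0104) fell, and these calls held in 17 of 18 and 14 of 18 alternatives. Both encode long transcripts, and neither was called once the length and GC trend was removed (adjusted p = 0.415 and 0.454). Around pyruvate dehydrogenase 2 of 15 members rose and 0 fell. The subunit gene Pdhb rose (log2FC 0.24, adjusted p = 0.00597, 17 of 18 alternatives), and so did Txnip, a regulator of glucose uptake (log2FC 0.29, adjusted p = 0.00863, 17 of 18).

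**Figure D3:**
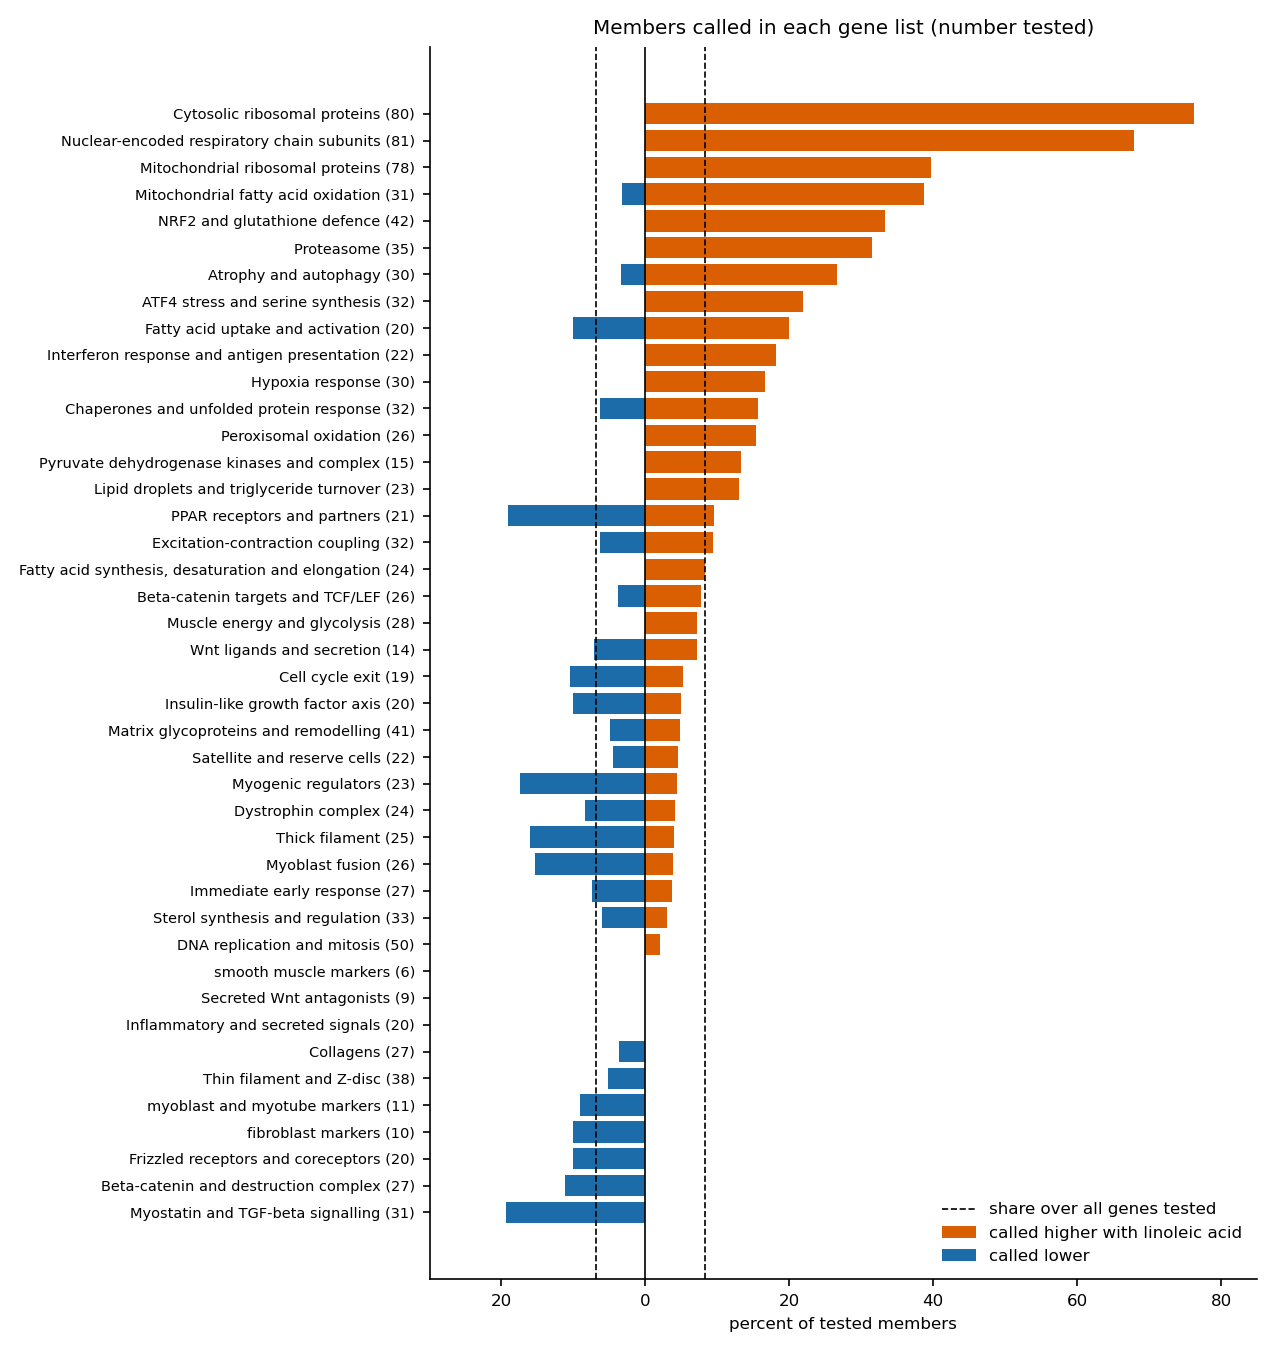
For each gene list with at least 5 members tested (number in brackets), bars give the percent of tested members called higher (orange, right) or lower (blue, left) with linoleic acid at day 2, and dashed lines give the same over all genes tested, 8.27% and 6.82%. Cytosolic ribosomal proteins and respiratory chain subunits have the longest bars to the right, and the TGF-beta list has the longest to the left.

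Stress genes rose in part, beside 8.27% of all genes tested that were called higher. Of the NRF2 and glutathione list, which covers antioxidant enzymes and cystine import, 14 of 42 tested members rose and 0 fell (median 0.16), and without linoleic acid replicate 3 it held 8 called higher. The number was 5 with only the 8 compared libraries and 7 with the length and GC trend removed. Slc7a11, the cystine carrier, stood at 6.101, 4.55, 7.15 and 8.25 CPM with vehicle and 19.6, 18.7, 20.2 and 7.87 CPM with linoleic acid. Treated replicates 1 to 3 were above every vehicle library, and replicate 4 lay within the vehicle range. Slc7a11 rose 2.69-fold (log2FC 1.43, SE 0.26, adjusted p = 0.00225) and was called in 17 of 18 alternatives. Hmox1, the heme-degrading enzyme, stood at 47.5, 42.5, 44.4 and 46.9 CPM and 55.8, 59.1, 59.96 and 53.7 CPM, with no overlap (log2FC 0.34, SE 0.061, adjusted p = 0.00104). The thiol enzymes Txn1 (log2FC 0.47, adjusted p = 0.00161) and Prdx1 (log2FC 0.44, adjusted p = 0.00214) rose, and both were higher in all 4 treated libraries.

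In the ATF4 and serine synthesis list 7 of 32 tested members rose and 0 fell (median 0.051), but 1 was called higher without linoleic acid replicate 3, 3 with only the 8 compared libraries and 2 with the length and GC trend removed. Ddit4, an inhibitor of mTORC1, stood at 20.96, 19.5, 20.6 and 14.4 CPM and 28.4, 29.4, 28.2 and 22.1 CPM (log2FC 0.54, SE 0.094, adjusted p = 0.000780), without overlap and called in all 18 alternatives. Phgdh, the first enzyme of serine synthesis, rose (log2FC 0.27, adjusted p = 0.0152, 14 of 18 alternatives). The hypoxia list also holds Angptl4 and Ddit4, and 5 of 30 tested members rose and 0 fell (median 0.083). Its other examples were Higd1a, a mitochondrial protein (log2FC 0.57, adjusted p = 0.00138), and the mitophagy receptor gene Bnip3l (log2FC 0.30, adjusted p = 0.00437), both called in all 18 alternatives. Of the chaperone list 5 of 32 rose and 2 fell, where 8.27% and 6.82% of all genes tested did. The small heat shock gene Hspb1 rose (log2FC 0.46, adjusted p = 0.00347), with replicate 4 below the highest vehicle library.

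Ribosomal and respiratory chain genes held the largest shares of called members, and their levels differed between the treated libraries. Of 80 cytosolic ribosomal protein genes tested, 61 rose and 0 fell (median log2FC 0.57), where 8.27% and 6.82% of all genes tested did. These are short transcripts, with a median annotated length of 925.5 nucleotides. Of all genes tested with transcripts under 1000 nucleotides, 37.8% were called higher and 1.43% lower. The summed level of the ribosomal list was 19140.1, 15067, 17714 and 19028 CPM in the vehicle libraries. It was 24984, 25774, 28472 and 18363 CPM in the linoleic acid libraries. Treated replicates 1 to 3 lay above every vehicle library, and replicate 4 lay inside the vehicle range. The sum in the ANGPTL4 libraries of day 2 was 23109, 19906, 19893 and 23503 CPM. The number called was 36 without linoleic acid replicate 3, 74 without replicate 4, 37 with the length and GC trend removed (median then 0.39), and 4 when only the 8 compared libraries entered the fit. Rpl22 stood at 169, 150.1, 161 and 160.4 CPM and 218, 217, 252 and 169 CPM, with replicate 4 within the vehicle range (log2FC 0.42, SE 0.069, adjusted p = 0.000572). Rps27a, a fusion of ubiquitin and a ribosomal protein, rose as well (log2FC 0.82, adjusted p = 0.00210). Levels of ribosomal protein genes are uncertain, since many have near-identical copies in the genome and the counting rule was not given in the sources used here.

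Nuclear-encoded subunits of the respiratory chain showed the same split of libraries. Of 81 tested, 55 rose and 0 fell (median 0.45). The list had a median annotated length of 849.5 nucleotides. Of all genes tested 8.27% were called higher, and of those under 1000 nucleotides 37.8%. Without linoleic acid replicate 3, 26 subunit genes were called. The number was 7 with only the 8 compared libraries and 28 with the length and GC trend removed (median then 0.22). Their sum was 7312, 6916, 6958 and 6879.8 CPM with vehicle and 8260.4, 8656, 9445 and 7133 CPM with linoleic acid, with replicate 4 again within the vehicle range. Ndufb2 of complex I stood at 14.5, 15.8, 14.8 and 14.4 CPM and 24.7, 22.6, 27.2 and 17.0 CPM. All 4 treated libraries were above the vehicle libraries (log2FC 0.65, SE 0.093, adjusted p = 0.000108). Ndufc1, also of complex I, had the second largest rise among called genes whose groups did not overlap and that reached 5 CPM, from 13.5, 12.0, 13.0 and 12.7 CPM to 27.0, 26.0, 30.1 and 14.0 CPM (log2FC 0.97, SE 0.18, adjusted p = 0.00267). Cox7a2 of complex IV rose as well (log2FC 0.58, adjusted p = 0.000936). Mitochondrially encoded genes were not analysed here.

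Mitochondrial ribosomal protein genes rose in 31 of 78 cases and fell in 0 (median 0.18), with 11 called without linoleic acid replicate 3, 9 with only the 8 compared libraries and 8 with the length and GC trend removed. Mrps24 stood at 12.6, 10.9, 13.5 and 13.6 CPM and 18.7, 20.7, 24.4 and 15.6 CPM (log2FC 0.68, SE 0.12, adjusted p = 0.000752), and Mrps36 had log2FC 0.78 (adjusted p = 0.00159). The mitochondrial ribosomal and proteasome lists had median annotated lengths of 1327.5 and 1581 nucleotides. Of all genes tested with transcripts of 1000 to 2000 nucleotides, 16.1% were called higher. Of the proteasome, 11 of 35 subunit genes rose and 0 fell (median 0.12). Its sum stood at 5196, 5168, 5145 and 5175 CPM with vehicle and 5302, 5508, 5886 and 5342 CPM with linoleic acid, without overlap. Psmb4, a subunit of the catalytic core, rose (log2FC 0.31, adjusted p = 0.00287), but 3 members were called without linoleic acid replicate 3, 2 with only the 8 compared libraries and 1 with the length and GC trend removed.

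**Figure D4:**
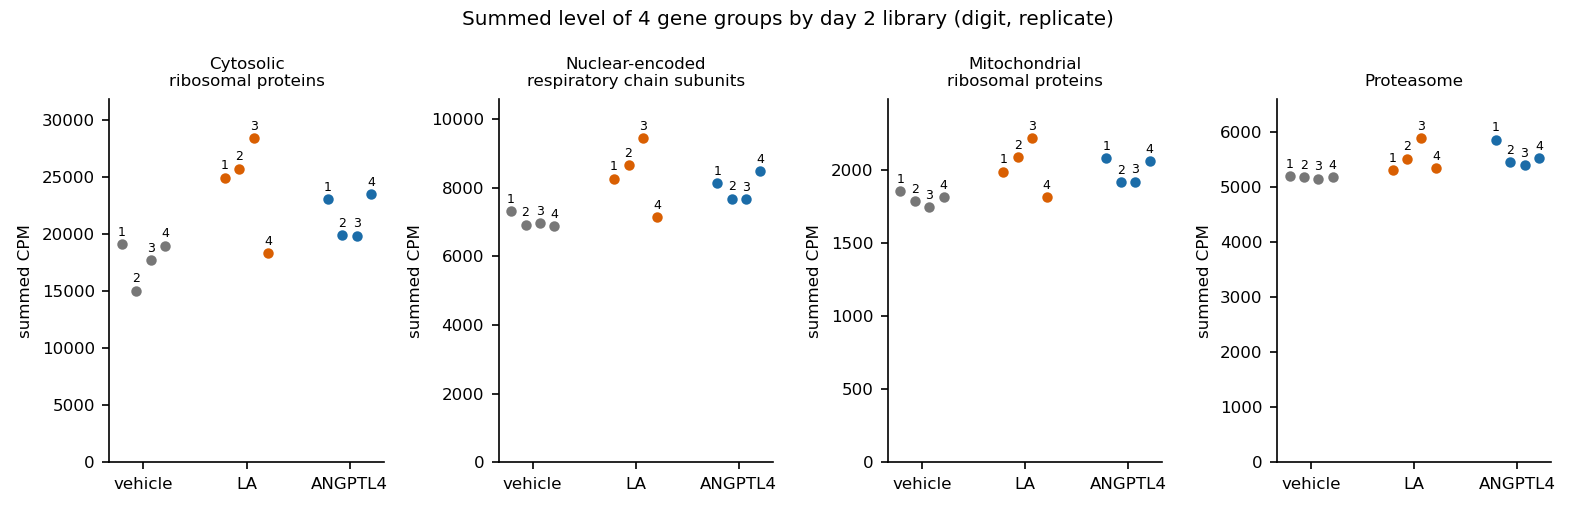
Summed CPM of 4 gene groups is plotted for each day 2 library of vehicle, linoleic acid (LA) and ANGPTL4, with the replicate number above each point and axes starting at 0. For cytosolic ribosomal proteins, respiratory chain subunits and mitochondrial ribosomal proteins, LA replicates 1 to 3 lie above the vehicle libraries and LA replicate 4 lies among them.

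The direction of change at day 2 moved with transcript length. Called genes with an annotated length had a median of 1612 nucleotides where they rose and 6488 where they fell, against 3157 over all tested. Of 698 genes with transcripts under 1000 nucleotides, 264 rose and 10 fell. Of 1783 genes of 6000 nucleotides or more, 14 rose and 498 fell. Relative to the vehicle mean, the median log2 deviation of the short genes was 0.30, 0.32, 0.41 and -0.0038 in linoleic acid libraries 1 to 4, and between -0.060 and 0.063 in the vehicle libraries. That of the long genes was -0.092, -0.11, -0.24 and -0.073 with linoleic acid and between -0.020 and 0.035 with vehicle. Replicate 3 thus deviated most at both ends, and replicate 4 was within the vehicle range at the short end and below it at the long end. For transcripts of 1000 to 2000 nucleotides, replicate 4 stood at 0.044, above the vehicle libraries at -0.0080 to 0.018. The ANGPTL4 libraries of day 2, set against the same vehicle libraries, had medians of 0.095 to 0.25 for the short genes and -0.16 to -0.097 for the long ones. Depth also differed, since linoleic acid replicates 1 and 3 were the deepest of the 8 libraries and replicate 4 the shallowest. With all 24 libraries thinned to the smallest total, 1195 genes were called. RNA integrity was given for all samples alike, as a number above 7, so its part in the length pattern was not tested.

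**Figure D5:**
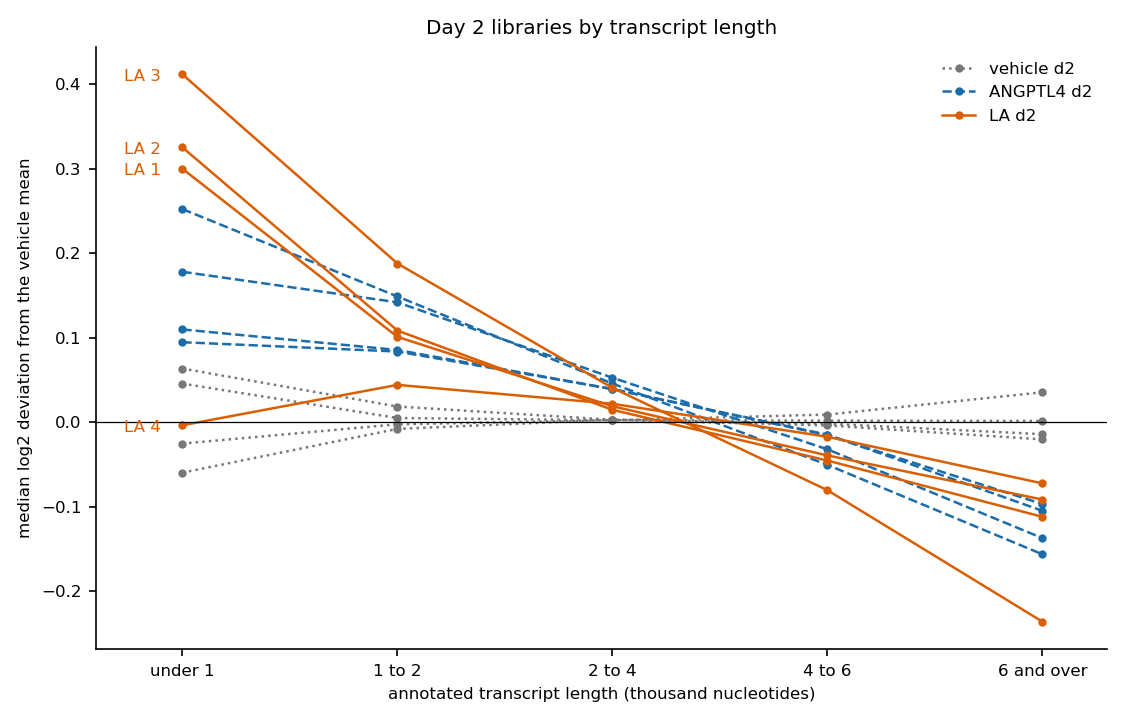
The median log2 deviation from the vehicle mean is plotted for each day 2 library in 5 classes of annotated transcript length, with linoleic acid (LA) in solid orange, ANGPTL4 in dashed blue and vehicle in dotted grey. LA replicates 1 to 3 run from 0.30, 0.32 and 0.41 at the short end to values below 0 at the long end, and LA replicate 4 starts at the level of vehicle.

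Adgrl3, an adhesion receptor, stood at 118, 115, 116 and 138 CPM with vehicle and 93.1, 92.8, 79.2 and 94.8 CPM with linoleic acid. All 4 treated libraries were below the vehicle libraries (log2FC -0.44, SE 0.061, adjusted p = 5.20e-05), and the call held in all 18 alternatives. Vcan, a large matrix proteoglycan, stood at 813, 772, 796 and 969 CPM and 648, 638, 588 and 697 CPM (log2FC -0.38, SE 0.063, adjusted p = 0.000509). Over all genes tested, 8.27% were called higher and 6.82% lower. In the myostatin and TGF-beta list 0 of 31 tested members rose and 6 fell (median -0.088), and 5 were called lower without linoleic acid replicate 3. Bmpr2, a receptor for bone morphogenetic proteins, stood at 367, 363, 384 and 467 CPM and 310.0, 300.4, 269.8 and 333 CPM (log2FC -0.38, SE 0.064, adjusted p = 0.000572), and Ltbp1, which holds latent TGF-beta in the matrix, had log2FC -0.24 (adjusted p = 0.00273). With the length and GC trend removed, 2 members of this list were called lower, Bmpr2 among them (adjusted p = 0.0246), while Ltbp1 and Vcan were not (adjusted p = 0.0580 and 0.0777). In the insulin-like growth factor list 1 of 20 rose and 2 fell, the receptor gene Igf1r among them (log2FC -0.31, adjusted p = 0.00338, 17 of 18 alternatives).

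Of 23 myogenic regulators 1 rose and 4 fell (median 0.0045), where 8.27% and 6.82% of all genes tested did. Without linoleic acid replicate 3 the counts were 0 and 1, and with the length and GC trend removed 0 and 0. Myod1, the regulator of commitment, stood at 159, 143, 159 and 176 CPM and 160.1, 158, 176 and 176 CPM (log2FC 0.075, SE 0.053, adjusted p = 0.362). Myog, the regulator of terminal differentiation, stood at 838, 955, 863 and 714 CPM and 868, 879, 1005 and 932 CPM (log2FC 0.13, SE 0.064, adjusted p = 0.178). Both overlapped between groups, and neither was called, nor was Myf5 (log2FC 0.22, adjusted p = 0.116) or the satellite cell gene Pax7 (log2FC -0.075, adjusted p = 0.547). Members that fell were Mef2a (log2FC -0.24, adjusted p = 0.00310), Mef2c (log2FC -0.23, adjusted p = 0.0321) and Six4 (log2FC -0.22, adjusted p = 0.0122), transcription factors of muscle genes whose calls held in 17 of 18, 11 of 18 and 14 of 18 alternatives.

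Genes of fusion differed among themselves. Mymx, the micropeptide that opens the fusion pore, stood at 42.3, 40.01, 42.3 and 40.3 CPM with vehicle and 51.0, 54.5, 56.2 and 52.0 CPM with linoleic acid. The groups were separate and tight (log2FC 0.38, SE 0.071, adjusted p = 0.00144), and the call held in 17 of 18 alternatives, lost where the length and GC trend of this short transcript was removed (adjusted p = 0.304). Its partner Mymk stood at 428, 462, 432 and 433 CPM and 471, 469, 492 and 418 CPM (log2FC 0.077, SE 0.068, adjusted p = 0.480) and was not called. Cdh2, the N-cadherin gene, fell from 319 ± 29.9 to 257 ± 5.76 CPM (log2FC -0.31, adjusted p = 0.00161). Over the fusion list 1 of 26 tested members rose and 4 fell, where 8.27% and 6.82% of all genes tested did. Without linoleic acid replicate 3 the counts were 1 and 1, and with the length and GC trend removed 0 and 0.

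Of the thick filament list 1 of 25 tested members rose and 4 fell (median -0.039). Of the thin filament and Z-disc list 0 of 38 rose and 2 fell (median -0.045). Over all genes tested, 8.27% were called higher and 6.82% lower. Without linoleic acid replicate 3, 1 thick filament and 0 thin filament and Z-disc genes were called lower. With the length and GC trend removed these numbers were 1 and 5. Myh4, the myosin heavy chain of fast fibres, stood at 252, 216, 254 and 255 CPM and 154, 193, 178 and 164 CPM. Every treated library was below every vehicle library (log2FC -0.50, SE 0.10, adjusted p = 0.00404), and the call held in all 18 alternatives. The embryonic myosin gene Myh3 fell from 5323 ± 252 to 4652 ± 311 CPM (log2FC -0.19, adjusted p = 0.0289, 10 of 18 alternatives). Neb, the giant ruler protein of the thin filament, fell from 2805 ± 278 to 2159 ± 292 CPM (log2FC -0.38, adjusted p = 0.0122, 14 of 18), and so did the Z-disc gene Actn2 (log2FC -0.26, adjusted p = 0.0156, 15 of 18). The short light chain gene Mylpf rose (log2FC 0.23, adjusted p = 0.0192, 12 of 18). Skeletal actin, Acta1, was at 2393, 2742, 2485 and 2385 CPM and 2433, 2499, 2621 and 2530.3 CPM (log2FC 0.011, SE 0.051, adjusted p = 0.915), and muscle creatine kinase, Ckm, was not called either (log2FC 0.20, adjusted p = 0.201).

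For coupling of excitation to contraction 3 of 32 tested members rose and 2 fell, close to the 8.27% and 6.82% of all genes tested. In this list Rapsn, which clusters acetylcholine receptors, was higher (log2FC 0.29, adjusted p = 0.00242, 18 of 18 alternatives). In the dystrophin complex 1 of 24 rose and 2 fell. Utrn, the utrophin gene, stood at 509, 541, 521 and 564 CPM and 444, 449, 334 and 456 CPM, lowest in treated replicate 3 (log2FC -0.35, SE 0.075, adjusted p = 0.00401). Muscle energy genes rose in 2 of 28 cases and fell in 0, and satellite cell genes in 1 and 1 of 22. The dystrophin, energy and satellite cell counts also stand near or below the shares over all genes.

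Genes of the Wnt pathway were counted by role, where 15.1% of all genes tested were called. Among ligands and secretion genes 1 of 14 rose and 1 fell, and among receptors 0 of 20 rose and 2 fell. The latter were the coreceptor gene Lrp6 (log2FC -0.22, adjusted p = 0.0139, 14 of 18 alternatives) and Fzd1 (log2FC -0.16, adjusted p = 0.0315, 11 of 18). Ctnnb1, which encodes β-catenin, stood at 759.8, 748, 729.6 and 714 CPM with vehicle and 789, 787, 800.3 and 804 CPM with linoleic acid. Its treated libraries were all above its vehicle libraries, by a margin that missed the threshold (log2FC 0.11, SE 0.043, adjusted p = 0.0872). With the length and GC trend removed it was called (adjusted p = 0.0101). Among genes of β-catenin and its destruction complex 0 of 27 rose and 3 fell (median -0.00023). Apc, the scaffold of that complex and a long transcript, fell from 287 ± 21.1 to 236 ± 18.6 CPM (log2FC -0.28, adjusted p = 0.00303, 17 of 18 alternatives).

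None of 9 secreted Wnt antagonists was called. Among β-catenin targets and TCF/LEF factors 2 of 26 rose and 1 fell (median -0.039). The counts of both lists are near or below the 8.27% called higher and 6.82% called lower over all genes tested. Axin2, the usual readout of the pathway, stood at 11.4, 11.1, 11.1 and 12.4 CPM and 12.1, 9.88, 10.9 and 9.72 CPM, with overlap (log2FC -0.092, SE 0.094, adjusted p = 0.555). Ccnd1 (log2FC 0.16, adjusted p = 0.265) and Myc (log2FC -0.034, adjusted p = 0.820) were not called. Lef1, the partner of β-catenin on DNA, fell from 17.7, 18.7, 16.6 and 21.4 CPM to 16.7, 13.3, 14.2 and 14.1 CPM (log2FC -0.35, SE 0.093, adjusted p = 0.0124), called in 14 of 18 alternatives. Ccn5, a secreted matricellular protein, stood at 28.6, 30.0, 27.6 and 29.6 CPM and 37.1, 36.7, 40.9 and 38.2 CPM, without overlap and called in all 18 alternatives (log2FC 0.40, SE 0.075, adjusted p = 0.00136).

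Counts in the other lists are read against the 8.27% of all genes called higher and the 6.82% called lower. Of 50 genes of DNA replication and mitosis 1 rose and 0 fell, and of the genes of cell cycle exit 1 of 19 rose and 2 fell. Collagens held 0 higher and 1 lower of 27, and matrix glycoproteins 2 and 2 of 41. The 20 inflammatory genes tested held no call, and the interferon and antigen presentation list held 4 higher and 0 lower of 22. Immediate early genes held 1 and 2 of 27. Among genes of atrophy and autophagy 8 of 30 tested members rose and 1 fell (median 0.050), and 3 were called higher without linoleic acid replicate 3, 3 with only the 8 compared libraries and 5 with the length and GC trend removed. Ctsb, a lysosomal protease, rose (log2FC 0.24, adjusted p = 0.00408, 17 of 18 alternatives), and Foxo1, a transcription factor of the atrophy program, fell (log2FC -0.23, adjusted p = 0.00439, 17 of 18).

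Among called genes of at least 5 CPM whose groups did not overlap, the largest rises after Angptl4 and Ndufc1 included those of Atox1 and Tspo. Atox1, a copper chaperone, stood at 11.5, 11.8, 11.8 and 9.57 CPM and 20.4, 21.3, 20.2 and 15.9 CPM (log2FC 0.82, SE 0.11, adjusted p = 3.43e-05). Tspo, a cholesterol-binding protein of the outer mitochondrial membrane, stood at 76.8, 61.8, 58.5 and 47.8 CPM and 93.6, 98.9, 128 and 110.5 CPM (log2FC 0.82, SE 0.14, adjusted p = 0.00214), and here replicate 4 was the second highest treated library. The others were Tmem256 (log2FC 0.88), Rps27a, the spliceosome gene Snrpd2 (0.79), Mrps36, Acyp1 (0.78) and Rpl10a (0.77). The largest falls were those of the monocarboxylate transporter family gene Slc16a4, at 9.90, 8.49, 11.8 and 13.6 CPM and 6.89, 7.84, 5.38 and 8.49 CPM (log2FC -0.65, SE 0.16, adjusted p = 0.00833), and of the teneurin gene Tenm4, at 18.2, 14.2, 18.9 and 18.2 CPM and 14.1, 10.4, 10.6 and 10.1 CPM (log2FC -0.59, SE 0.12, adjusted p = 0.00214). B3galt2 (-0.56), Myh4, Bicd1 (-0.50), Cyfip2 (-0.49), the endothelial lipase gene Lipg (-0.47), Adgrl3, Klf5 (-0.43) and Ppm1k (-0.43) followed. Of these 20 genes, Slc16a4, B3galt2, Lipg, Klf5, Ppm1k, Rps27a and Rpl10a lost their call in at least 1 alternative.

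The effect of linoleic acid at day 2 was set against that at day 6, in libraries that the 2 effects do not share. The difference was called for 2554 genes (19.7%), 1128 with a higher and 1426 with a lower log2FC at day 6. Angptl4, Cpt1a, Plin2, Klf11 and Ucp2, all higher with linoleic acid at day 2, had a larger effect at day 6. Angptl4 was at 20.8 ± 0.759 CPM with vehicle and 285 ± 22.8 CPM with linoleic acid at day 6 (SD, n = 4), and its log2FC exceeded that of day 2 by 1.77 (adjusted p = 5.67e-15). The difference was called for Cpt1a (1.11, adjusted p = 3.19e-13), Plin2 (0.54, adjusted p = 8.04e-06), Klf11 (0.61, adjusted p = 0.00634) and Ucp2 (0.77, adjusted p = 6.79e-05) as well. It was also called for genes that had no call at day 2. Pdk4 stood at 37.4 ± 3.07 and 112 ± 10.9 CPM at day 6 (difference of effects 1.56, adjusted p = 7.53e-07), and Lpl at 6.06 ± 1.97 and 37.8 ± 9.50 CPM (2.29, adjusted p = 5.19e-05). Aoc3, an amine oxidase, stood at 3.02 ± 1.11 and 14.7 ± 1.29 CPM (2.08, adjusted p = 2.73e-08), and Crybg1 had a difference of 1.23 (adjusted p = 5.25e-08). Sema3e, a guidance factor, fell at day 2 (log2FC -0.23, adjusted p = 0.00532) and had a log2FC of 0.59 at day 6 (difference 0.82, adjusted p = 1.15e-08). For Slc25a20 the difference was not called (-0.23, adjusted p = 0.207), nor for Oxct1 (0.082, adjusted p = 0.503).

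Other genes had their higher log2FC at day 2. Slc7a11 had a difference of -1.82 (adjusted p = 0.00386), with 8.13 ± 2.29 CPM in vehicle and 6.201 ± 0.674 CPM in linoleic acid cells at day 6. Over all 12994 genes tested, 1128 were called higher and 1426 lower in this difference. Respiratory chain subunits held 0 called higher and 61 lower of 81, with median log2FC 0.45 at day 2 and -0.17 at day 6. Cytosolic ribosomal proteins held 0 and 41 of 80, with medians of 0.57 and -0.011. The rise of short transcripts at day 2, which moved with single libraries, enters this difference. Its part in the counts of these lists was not tested. In the sarcomere lists the log2FC was lower at day 6 for 21 of 38 thin filament genes and 16 of 25 thick filament genes (medians at day 6 -0.38 and -0.42). Acta1 (-0.44, adjusted p = 8.02e-05), Mymk (-0.67, adjusted p = 2.48e-05) and Mymx (-0.68, adjusted p = 3.65e-05) were called lower in the difference as well.

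ANGPTL4 was also supplied as a protein, and the linoleic acid libraries were compared directly with those of ANGPTL4 protein at day 2. The direct comparison called 12 genes (0.0924%), 8 higher and 4 lower with linoleic acid. Angptl4 mRNA was 21.6 ± 0.590 CPM with the protein against 81.7 ± 1.32 CPM with linoleic acid (log2 difference 1.92, adjusted p = 2.04e-21). Cpt1a stood at 89.96 ± 2.76 CPM with the protein (difference 0.65, adjusted p = 3.04e-11). Klf11 (0.68, adjusted p = 0.000653), Plin2 (0.29, adjusted p = 0.00352) and Ucp2 (0.43, adjusted p = 0.0203) were higher with linoleic acid as well. Prkg2, a cGMP-dependent kinase, was lower with linoleic acid, at 160.3 ± 8.26 against 205 ± 6.31 CPM (-0.35, adjusted p = 4.21e-05), as were Oxct1 (-0.31, adjusted p = 0.00537) and the ERK phosphatase gene Dusp6 (-0.30, adjusted p = 0.0154).

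Of these 12 calls, 3 (Angptl4, Cpt1a and Prkg2) held in all 22 alternatives of this comparison. The count moved with single libraries. It was 159 without linoleic acid replicate 3, 363 without linoleic acid replicate 4, 102 without ANGPTL4 replicate 4 and 24 without vehicle replicate 4. It was 7 without linoleic acid replicate 1, 6 without linoleic acid replicate 2 and 7 without ANGPTL4 replicate 3, and 1607 genes had an unadjusted p under 0.05. Against the shared vehicle libraries, the ribosomal protein list had a median log2FC of 0.57 with linoleic acid and 0.29 with ANGPTL4 protein, and the respiratory chain list 0.45 and 0.21. In the direct comparison no member of either list was called.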

How the data were processed

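Gene-level read counts were used as deposited, 14693 genes by 24 libraries. Per the submitters' processing notes, STAR 2.7.1a, HTSeq 0.9.1, Trimmomatic, DESeq and DESeq2 were used with build mm39, and the strand setting of the counting is not given in the sources used here. The lowest gene total was 51 counts. Counts were fitted with edgeR 4.0.16 (R 4.3.3, TMM scaling, robust quasi-likelihood, 6 group means over 24 libraries) on the 12994 genes that passed filterByExpr, with Benjamini-Hochberg adjustment over all of them. SE is the absolute log2FC over the square root of F, and CPM uses TMM-scaled totals. The fit was also run on simulated counts, and the outcome of that step is not reported here. Length and GC trends were removed per library with mgcv 1.9.3, using GENCODE M21 transcripts of build GRCm38.

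Members, gene lists and tests were chosen with earlier results of these data known. Named genes are a fixed set of fatty acid, stress, muscle and Wnt genes, the 10 largest rises and falls without overlap at 5 CPM or more, up to 5 called and up to 2 uncalled members of each list, and the 5 smallest adjusted p-values of the comparisons with day 6 and with ANGPTL4. Some genes that this rule names are not reported here. Alternatives were other scalings, filters, limma-voom 3.58.1, DESeq2 1.42.0, only the compared groups, a replicate block, thinning, the length and GC correction, and each library left out. Leaving out ANGPTL4 and day 6 libraries was chosen after seeing the data. Libraries of a group correlated at 0.991 to 0.998, and none differed by as little as counting noise (chi-square per degree of freedom at least 2.53).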

Additional observations from a re-analysis of the deposited data

Results flagged for a closer look

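In each of 204 groups of 4 libraries (vehicle and linoleic acid at day 2, for the named genes, the library totals and the summed levels of the plotted complexes), the highest or lowest library was compared with the others, and 23 stood apart, where chance gives about 1 in 20. The library that stood apart was vehicle replicate 4 for Ncor1 (484 CPM), Pax7 (38.0 CPM), Myc (41.3 CPM), Psmb4 (81.7 CPM), Atox1 (9.57 CPM), Bicd1 (24.9 CPM), Adgrl3 (138 CPM) and Prkg2 (198 CPM). It was vehicle replicate 2 for Mymk (462 CPM), Myh4 (216 CPM), Ccnd1 (69.97 CPM), Rpl10a (70.5 CPM), Snrpd2 (17.0 CPM) and Tenm4 (14.2 CPM). It was vehicle replicate 1 for Ctsb (615 CPM). It was linoleic acid replicate 3 for Utrn (334 CPM), Psmb4 (129 CPM) and Adgrl3 (79.2 CPM). It was linoleic acid replicate 4 for Slc7a11 (7.87 CPM), Ddit4 (22.1 CPM), Hspb1 (85.1 CPM) and Fzd1 (104 CPM). It was linoleic acid replicate 1 for Tenm4 (14.1 CPM).

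The effect of linoleic acid differed between days, by the test of the difference itself, for 62 of the 97 named genes. Over all genes tested the share was 19.7%. Some of the 97 were named for a small adjusted p in this same test. Others were named for their effect at day 2, which enters the difference. The count therefore cannot set the named genes apart from other genes. Values are the log2FC at day 6 minus that at day 2. Genes that rose at day 2 and had a higher log2FC at day 6 were Plin4 (2.099), Angptl4 (1.77), Cpt1a (1.11), Ucp2 (0.77), Klf11 (0.61), Plin2 (0.54), Ccn5 (0.34), Acaa2 (0.28) and Agpat3 (0.17). Among genes that fell at day 2, the log2FC was higher at day 6 for Sema3e (0.82), B3galt2 (0.74), Slc16a4 (0.73), Bicd1 (0.50), Adgrl3 (0.48), Lrp6 (0.46), Igf1r (0.37), Nrip1 (0.30), Fzd1 (0.29), Vcan (0.28), Apc (0.27), Bmpr2 (0.26) and Ncor1 (0.22). Without a call at day 2, it was higher at day 6 for Lpl (2.29), Aoc3 (2.08), Pdk4 (1.56), Crybg1 (1.23) and Pax7 (0.48). Genes that rose at day 2 and had a lower log2FC at day 6 were Slc7a11 (-1.82), Ndufc1 (-1.41), Tspo (-1.25), Tmem256 (-1.08), Mrps24 (-1.07), Rpl10a (-0.94), Atox1 (-0.93), Rps27a (-0.88), Snrpd2 (-0.86), Mrps36 (-0.84), Cox7a2 (-0.80), Ndufb2 (-0.73), Acyp1 (-0.72), Higd1a (-0.69), Mymx (-0.68), Ddit4 (-0.66), Dbi (-0.61), Txn1 (-0.61), Hspb1 (-0.59), Fabp3 (-0.53), Mylpf (-0.52), Pdhb (-0.44), Psmb4 (-0.44), Rapsn (-0.42), Prdx1 (-0.37), Phgdh (-0.35), Rpl22 (-0.33), Pex19 (-0.23) and Slc27a1 (-0.22). Among genes that fell at day 2, it was lower still at day 6 for Myh3 (-0.26). Without a call at day 2, it was lower at day 6 for Mymk (-0.67), Ckm (-0.52), Acta1 (-0.44), Myod1 (-0.39) and Myog (-0.37).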

How the results depend on the processing

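The count of 1961 genes changed at day 2 moved by over 1.5 times in 3 settings besides the left-out libraries. It was 422 (254 higher, 168 lower) with only the compared groups, 1195 (655 and 540) with libraries thinned to the smallest total, and 722 (567 and 155) with the length and GC trend removed. Leaving out 1 library gave 632 to 2456 genes, 364 to 1243 higher and 268 to 1213 lower. The day difference ranged from 1806 to 2820. For linoleic acid against ANGPTL4 the 12 calls became 22 with limma-voom, 35 with DESeq2, 6 with only the compared groups, 5 when thinned and 29 with the length and GC trend removed, and 6 to 363 with 1 library left out. The difference of library totals ranged from 5.21 to 10.4 M counts, and its exact permutation p fell under the threshold only without linoleic acid replicate 4 (10.4 M, p = 0.0286). The share of calls that were higher was 54.8%, and 68.2% with library totals alone, 78.5% with the length and GC trend removed, 47.6% with DESeq2's size factors and 46.0% with DESeq2. The cause of these shifts was not tested.

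Replicate numbers did not pair the libraries, since deviations of same-numbered libraries correlated at -0.177 to -0.0532 and 0 of 4 linoleic acid libraries correlated best with their own number. With the replicate block 1823 genes were called at day 2, 2377 in the day difference and 8 against ANGPTL4.

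Reversals of sign were found in genes without a call and in Mylpf (-0.037 with the length and GC trend removed). With that trend removed, log2FC was 0.066 for Scd1, -0.0093 for Myod1, -0.046 for Mymk and -0.12 for Acta1. With DESeq2 it was -0.0037 for Pdk4 and -0.0010 for Acta1. It was -0.00096 for Acta1 with DESeq2's size factors, 0.020 for Scd1 with library totals alone, and -0.044 for Pdk4 and 0.028 for Pax7 when thinned. With 1 library left out it ranged from -0.012 to 0.073 for Hadha, -0.083 to 0.15 for Pdk4, -0.13 to 0.023 for Cd36, -0.033 to 0.018 for Scd1, -0.022 to 0.056 for Acta1 and -0.076 to 0.064 for Myc.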
